A study of Caenorhabditis elegans with 2 samples.

Results

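The C. elegans genes named flp (FMRFamide-like peptide) or nlp (neuropeptide-like protein) were examined for regions occupied by the transcription factor JUN-1 in L3 larvae. Members were the protein-coding genes of the Ensembl annotation of build WBcel235 whose symbol is flp- or nlp- followed by a number, which gave 102 of 19973 protein-coding genes, 31 of them flp and 71 nlp. Symbols, not measured values, chose the members. In the RefSeq annotation 96 of the 102 carry a product name that mentions a neuropeptide, an FMRF-like peptide or an amidated peptide.

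The assay was ChIP-seq (chromatin immunoprecipitation followed by sequencing), in which DNA attached to a tagged protein is pulled down and sequenced. Whole L3 larvae of strain OP234 were used, recorded as males and females pooled. All carried the integrated transgene wgIs234, which supplies eGFP-tagged JUN-1, in the unc-119(ed3) III background. The 2 biological replicates form 1 group, so no condition was compared, no p-value is given. Control experiments that the labels mention are not analysed here. The cells in which the transgene is active were not given in the sources used here, and the whole animals used here mix all tissues.

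Neuropeptides are cut from longer precursor proteins, usually amidated, packed into dense core vesicles and released to act on G protein-coupled receptors of other cells. FMRFamide-like peptides are used mostly by neurons and share an amidated end, whereas the nlp genes are a mixed set that includes neuronal signals, the intestinal peptide NLP-40 and antimicrobial peptides of the epidermis such as NLP-29 and NLP-31. JUN-1 is a basic leucine zipper protein of the AP-1 class, which binds DNA as a pair of such proteins.

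No member had a JUN-1 peak of the IDR list in its promoter. This list (irreproducible discovery rate, which compares the ranks of regions between replicates) was derived from both replicates and had 2738 peaks. A listed peak can still rank differently in the 2 replicates, as described for nlp-36 below. A promoter was counted as occupied when a summit lay between 1000 bp upstream and 500 bp downstream of any annotated 5′ end of the gene. Of the 102 members 0 met this, which allows a share of up to 2.94%, while 9.50% of all coding genes met it. An exact 95% Clopper-Pearson interval, which covers counting error over genes only, reached 3.55% for the members.

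The more permissive lists did hold regions at neuropeptide promoters, and they were fewer and weaker than at coding genes at large. In the pooled list, made from both replicates together, 21 members had a promoter region (20.6%, interval 13.2 to 29.7%), beside 39.2% of all coding genes. The replicate 1 list had a region at 41 members (40.2%, interval 30.6 to 50.4%) beside 45.5%, and the replicate 2 list at 32 members (31.4%, interval 22.5 to 41.3%) beside 45.8%. The replicate 1 share is thus close to the background and says little of the members. In 11 members (10.8%, interval 5.51 to 18.5%) both replicates placed a summit within 200 bp of each other, beside 25.2% of all coding genes. Those 11 were 26.8% of the members with a replicate 1 region and 34.4% of those with a replicate 2 region, whereas over all coding genes the shares were 55.4% and 54.9%.

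Most of these pooled regions had weak support. Each carries the authors' signal value (a score whose scale is not stated, used here only to rank and describe regions within a list) and a −log10 q-value, also from the authors. The 26 distinct pooled regions in member promoters had a median −log10 q of 0.15, and 3 of them (11.5%) reached a q of 0.05 or less, beside 22.9% of the whole pooled list and all 2738 IDR peaks. Those 3 belong to nlp-24 and to the pair nlp-31 and nlp-34. The strongest promoter region per member ran from 8.78 to 28.8 with a median of 11.7 over 21 members, and over all coding genes the median was 17.1 and the highest 378. No member reached 31.4, the signal of the lowest IDR peak.

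The pooled shares differed between groups of members, which were chosen with earlier results of these data known. Among the 31 flp genes 5 (16.1%, interval 5.45 to 33.7%) had a pooled promoter region. Among the 60 nlp genes outside nlp-24 to nlp-34 9 did (15%, interval 7.1 to 26.6%). Among the 11 genes nlp-24 to nlp-34, which include the epidermal antimicrobial peptide genes, 7 did (63.6%, interval 30.8 to 89.1%). Of these genes 6 form a single cluster and nlp-31 and nlp-34 share their region, so they are not 11 independent observations. Over all coding genes the share was 39.2%, above the first 2 groups and their intervals. It was below the share of the third group but inside its interval. The replicate 1 list had a region at 16 flp genes (51.6%), beside 45.5% of all coding genes, and the replicate 2 list at 8 (25.8%), beside 45.8%. The replicates placed summits within 200 bp at 2 flp genes, flp-9 and flp-12, a share of 6.45% beside 25.2%.

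**Figure D1:**
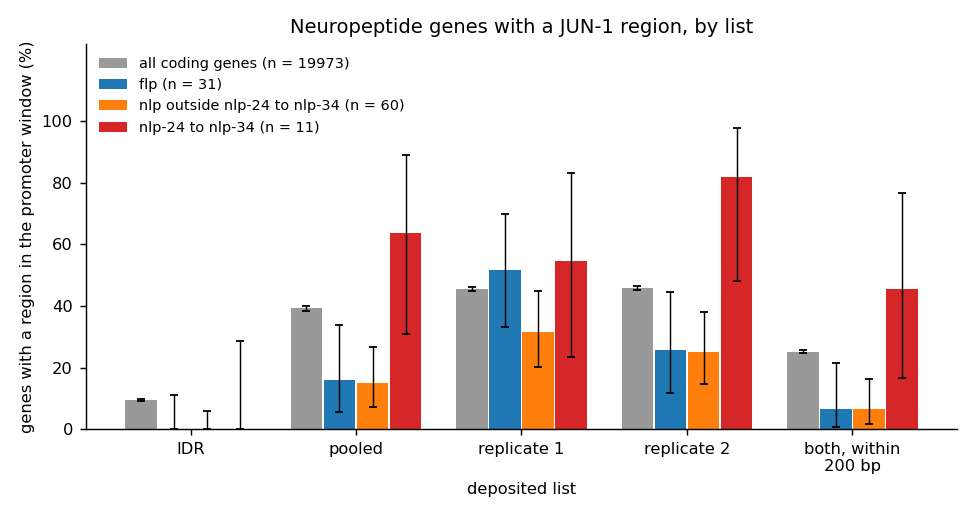
Percentage of genes with a region in the promoter window (y axis) in each deposited list and in both replicate lists with summits within 200 bp (x axis), for all coding genes, flp genes, nlp genes outside nlp-24 to nlp-34, and nlp-24 to nlp-34. Bars are shares and lines are exact 95% Clopper-Pearson intervals over genes. The 3 neuropeptide groups are at 0 in the IDR list, and nlp-24 to nlp-34 reach 63.6% in the pooled list.

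The strongest member promoter regions lay at genes of nlp-24 to nlp-34. Sequence at the summits is shown for the region shared by nlp-31 and nlp-34 and for nlp-24, which come nearest to the IDR list. For nlp-33, the next of these genes by signal, the region nearer to its 5′ end is shown. Each line gives 101 bases centred on a pooled summit on build ce11 (WBcel235), read 5′ to 3′ on the strand of the gene from the RefSeq genome sequence. Capitals mark matches to the letters searched on both strands: the GATA factor letters TGATAA, which read TTATCA on the other strand, and the C/EBP-like letters TTNCGNAA. The lines for nlp-24 and nlp-33 without capitals hold none of the 6 kinds of letters searched. The nlp-27 line is shown because it is the other promoter region of the nlp-29 cluster with a summit in both replicates. The nlp-29 line is shown because nlp-29 is the usual reporter gene of the epidermal infection response, and it also holds none.
nlp-31 and nlp-34 (chrV:3979984-3980084, plus strand): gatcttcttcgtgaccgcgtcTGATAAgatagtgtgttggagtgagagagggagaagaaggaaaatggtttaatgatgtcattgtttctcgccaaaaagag
nlp-24, 15 bp upstream (chrV:11616311-11616411, plus strand): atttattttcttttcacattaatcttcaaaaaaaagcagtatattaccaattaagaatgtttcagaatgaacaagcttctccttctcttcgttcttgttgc
nlp-24, 299 bp upstream (chrV:11616027-11616127, plus strand): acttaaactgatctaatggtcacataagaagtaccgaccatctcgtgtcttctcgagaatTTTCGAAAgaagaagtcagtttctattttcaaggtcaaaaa
nlp-33, 50 bp upstream (chrV:11147246-11147346, plus strand): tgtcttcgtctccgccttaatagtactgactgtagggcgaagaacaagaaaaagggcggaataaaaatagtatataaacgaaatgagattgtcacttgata
nlp-27 (chrV:3989279-3989379, plus strand): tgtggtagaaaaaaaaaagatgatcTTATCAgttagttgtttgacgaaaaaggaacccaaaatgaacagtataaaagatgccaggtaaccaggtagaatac
nlp-29 (chrV:3983944-3984044, plus strand): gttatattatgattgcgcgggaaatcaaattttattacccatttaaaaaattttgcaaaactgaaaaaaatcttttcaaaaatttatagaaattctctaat

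The region shared by nlp-31 and nlp-34 had a signal of 28.8 in the pooled list (rank 3119), of 14.4 in replicate 1 (rank 2646) and of 14.2 in replicate 2 (rank 4408). Its summit lay 21 bp upstream of nlp-31 and 900 bp upstream of nlp-34, which is read from the opposite strand. The region was thus among the strongest 2738 of replicate 1 and not of replicate 2. The same region is the strongest within 3 kb upstream of nlp-30, at 1946 bp.

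Within 3 kb upstream of nlp-24 lay 4 pooled regions. The weakest, in an intron of tag-290, had 12.9 in the pooled list, 4.92 in replicate 1 and 7.52 in replicate 2. The other 3 were stronger. The one 15 bp upstream had a signal of 27.6 in the pooled list, of 13.7 in replicate 1 and of 11.2 in replicate 2. The one 299 bp upstream had 23.2, 17.1 and 6.70 in the same order, and the one 1273 bp upstream, outside the promoter window, had 28.6, 7.98 and 20.3. The replicates therefore ranked these 3 stronger sites in opposite order: replicate 1 was highest 299 bp upstream and replicate 2 at 1273 bp.

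The promoter of nlp-33, another gene of nlp-24 to nlp-34, held regions of 18.0 and 17.1, 280 and 50 bp upstream. In replicate 1 a summit matched only the nearer one, at 12.4. In replicate 2 a single summit of 17.9 lay within 200 bp of both. Both regions also lie in the promoter window of the neighbouring gene T19C4.24.

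The gene cluster of nlp-29 spans 10.9 kb of chromosome V (positions 3978825 to 3989770, build ce11) and holds nlp-34, nlp-31, nlp-30, nlp-29, nlp-28 and nlp-27 in that order. With 3 kb added on either side it contained 8 pooled regions and 0 IDR peaks. Replicates supported its parts unequally. The nlp-29 promoter region, 431 bp upstream, had a pooled signal of 9.90 (rank 16545), with 10.6 in replicate 2 and no replicate 1 region in the promoter. At nlp-27 the region 49 bp upstream had a pooled signal of 10.7, with 7.20 in replicate 1 and 6.72 in replicate 2. In its promoter nlp-28 had no region in any list, and nlp-30 had a single replicate 2 region of 5.18.

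**Figure D2:**
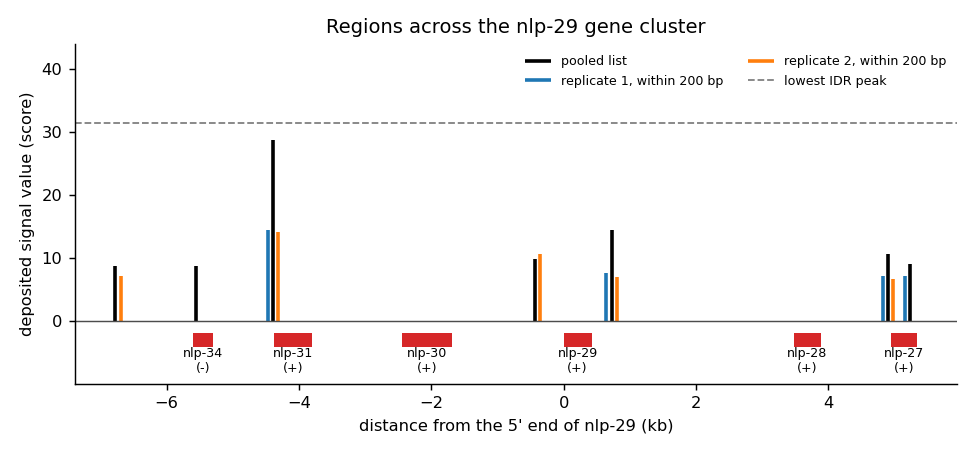
Signal of pooled regions across the nlp-29 cluster (y axis, deposited score) against distance from the 5′ end of nlp-29 in kb (x axis), with replicate values drawn beside a pooled region where a replicate summit lay within 200 bp. Red bars are genes with their strand, and the dashed line is the lowest IDR peak, 31.4. Only regions with a summit in the promoter window or within 3 kb upstream of a cluster gene are drawn. The region between nlp-34 and nlp-31 stands at 28.8, the other regions drawn at 14.5 or below.

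The other genes of this numbered run are nlp-25, nlp-26 and nlp-32. The promoter of nlp-25 had a pooled region of 14.1 at 916 bp upstream, near the edge of the window, with 9.73 in replicate 2 and none in replicate 1. Promoter regions of 5.89 in replicate 1 and 7.88 in replicate 2 stood at nlp-26, with none in the pooled list. The only one of the 11 genes on another chromosome, nlp-32 on chromosome III, had no promoter region in any list.

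Among the members outside nlp-24 to nlp-34, nlp-40 had the highest pooled promoter value. The peptide is released by the intestine to trigger the expulsion step of defecation. The gene has 3 annotated 5′ ends. Its strongest pooled region, in an intron 287 bp downstream of an internal 5′ end, had 19.2, with matched summits of 7.89 in replicate 1 and 10.5 in replicate 2. A second region, in the 5′ UTR near the outermost 5′ end, had 15.0, with 10.5 and 9.71.

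The promoter of nlp-4 held a region of 17 that also lies in the promoter window of exos-3 and was matched only in replicate 1, at 11.0. At nlp-35 the region lay in a coding exon and had 15.9, with 7.73 in replicate 1 and summits of 5.85 and 8.89 in replicate 2. At nlp-76 a region in the 5′ UTR had 14.1, with 7.48 and 12.2.

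The 5 flp genes with a pooled promoter region had values of 12.2 or less on the same score. The highest, flp-12, had 12.2 in the pooled list, 5.89 in replicate 1 and 4.62 in replicate 2. For flp-9 the values were 11.7, 5.46 and 5.15. Both regions ranked far down the pooled list, and flp-34 (10.4), flp-16 (10) and flp-17 (9.44) had no replicate pair within 200 bp. The other members with a pooled promoter region were nlp-62, nlp-3, nlp-47, nlp-82 and nlp-14, between 8.78 and 11.2, and none had a replicate pair within 200 bp.

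**Figure D3:**
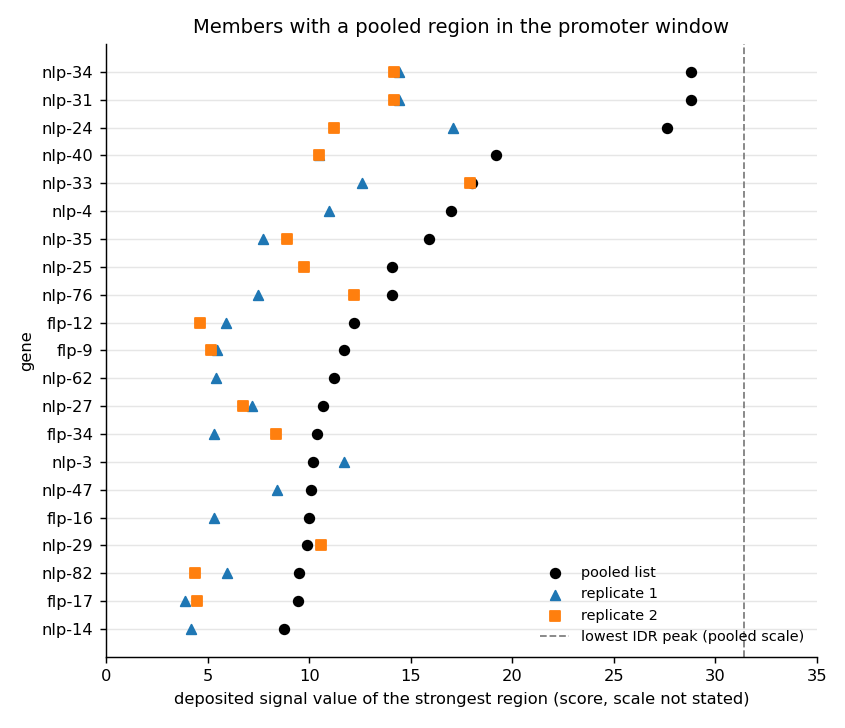
Deposited signal value (x axis, score of unstated scale) of the strongest region in the promoter window of each of the 21 members with a pooled region (y axis), in the pooled list and in each replicate list, where the 3 marks of a gene can belong to different summits. The dashed line is the lowest IDR peak, 31.4. All 21 pooled values lie below it, from 8.78 at nlp-14 to 28.8 at nlp-31 and nlp-34.

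Of the 102 members 45 (44.1%) had no promoter region in any of the 4 lists, 11 flp and 34 nlp, beside 40.3% of all coding genes. A replicate 1 region without a replicate 2 region was found at 25 members (24.5%), beside 13.3% of all coding genes, and the reverse at 16 (15.7%), beside 13.7%. A further 16 (15.7%) had a region in both lists at any distance, beside 32.1%. Among flp genes those without any region were flp-2, flp-3, flp-6, flp-8, flp-10, flp-11, flp-19, flp-20, flp-21, flp-22 and flp-26.

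The strongest regions of each replicate included few members as well. Among the strongest 2738 regions of replicate 1, a number equal to that of the IDR list, 3 members had a promoter region (2.94%), namely nlp-24, nlp-31 and nlp-34, beside 8.85% of all coding genes. In replicate 2 there were 0, beside 9.43%, and in both replicates 0, beside 6.56%. The limit that a count of 0 allows is 2.94% here too.

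Peaks of the IDR list lay farther upstream at 3 members. Within 3 kb upstream, an IDR peak was found for 3 of 102 (2.94%, interval 0.611 to 8.36%), beside 14.4% of all coding genes. The genes were nlp-12, nlp-26 and nlp-36. In the pooled list 40 members (39.2%) had a region there, beside 52.0%. In the replicate lists 53 (52.0%) and 60 (58.8%) did, beside 60.9% and 61.1%, so the replicate 2 share lies near the background.

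The IDR peak upstream of nlp-12, which encodes a cholecystokinin-like peptide of the stretch-sensing neuron DVA, had the highest value of the 3. It had a signal of 42.2 in the pooled list (rank 1705), of 24.4 in replicate 1 and of 17.5 in replicate 2. Its summit lay 1292 bp upstream of nlp-12 but 353 bp from the 5′ end of emr-1, the gene of the nuclear envelope protein emerin, and was counted in the emr-1 promoter.

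The IDR peak of nlp-36 lay 1056 bp upstream, just beyond the window's edge of 1000 bp, and was in no coding gene's promoter window. It had 33.9 in the pooled list and 25 in replicate 2 (rank 1777). In replicate 1 the nearest summit had 4.30 and a stronger one, 139 bp from the pooled summit, had 9.23 (rank 5493), so the site ranked lower in replicate 1. The peak of nlp-26, 1879 bp upstream in an intron of grsp-1, had 32.3, with 13.4 in replicate 1 and 16.6 in replicate 2. It too was in no promoter window, and nlp-26 was the nearest coding 5′ end, as nlp-36 was for its peak. Both peaks lie just inside the list, whose lowest signal is 31.4, and the region of nlp-56 lies just outside it at 30.9 (rank 2805).

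The windows at these upstream sites are shown because nlp-36 and nlp-26 have an IDR peak within 3 kb upstream for which they are the nearest gene, nlp-56 has the region just below the IDR limit, and the nlp-1 region is the only one of 65 at members with AP-1 letters. Each is 101 bases around the pooled summit on build ce11, 5′ to 3′ on the strand of the member. Capitals mark TTATCA at nlp-36 (TGATAA read on the other strand) and repeats of GAGAGAGA at nlp-56. At nlp-1 they mark the AP-1 letters, TGACTCA or TGAGTCA on the other strand, and the E-box letters CACGTG. The nlp-26 window holds none of the letters searched. The nlp-56 and nlp-1 windows were chosen after their values were seen.
nlp-36 (chrIII:9487625-9487725, plus strand): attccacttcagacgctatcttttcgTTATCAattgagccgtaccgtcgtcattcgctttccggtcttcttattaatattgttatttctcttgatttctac
nlp-26 (chrV:19611532-19611632, plus strand): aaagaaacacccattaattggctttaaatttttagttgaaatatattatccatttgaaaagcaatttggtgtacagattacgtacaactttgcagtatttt
nlp-56 (chrIV:14786941-14787041, minus strand): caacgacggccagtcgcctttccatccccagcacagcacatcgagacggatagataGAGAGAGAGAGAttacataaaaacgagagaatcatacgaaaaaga
nlp-1 (chrX:3725830-3725930, plus strand): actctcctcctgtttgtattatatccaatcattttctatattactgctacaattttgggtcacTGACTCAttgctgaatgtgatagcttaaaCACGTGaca

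The nlp-56 region lay 2254 bp upstream of that gene and 40 bp from the 5′ end of melo-1. It had 27 in replicate 2 and no replicate 1 summit within 200 bp. The nlp-1 region, 1694 bp upstream, was weak, with a pooled signal of 12.3. In 26 of the 40 members with a pooled region within 3 kb upstream, the strongest one lay beyond the promoter window. Most of the 3 kb lies beyond that window's 1000 bp, and no share over all coding genes was counted. The count is therefore not read as a trait of the members. After the 3 IDR peaks and nlp-56, the highest of these upstream regions belonged to nlp-30 and nlp-24, described above, and to nlp-76. The nlp-76 region, 1286 bp upstream in an intron of nhr-17, had a pooled signal of 27.3 and a replicate 1 summit of 15.8 (rank 2262). In replicate 2 the nearest summit had 6.83 and a stronger one, 121 bp from the pooled summit, had 19.3 (rank 2708).

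**Figure D4:**
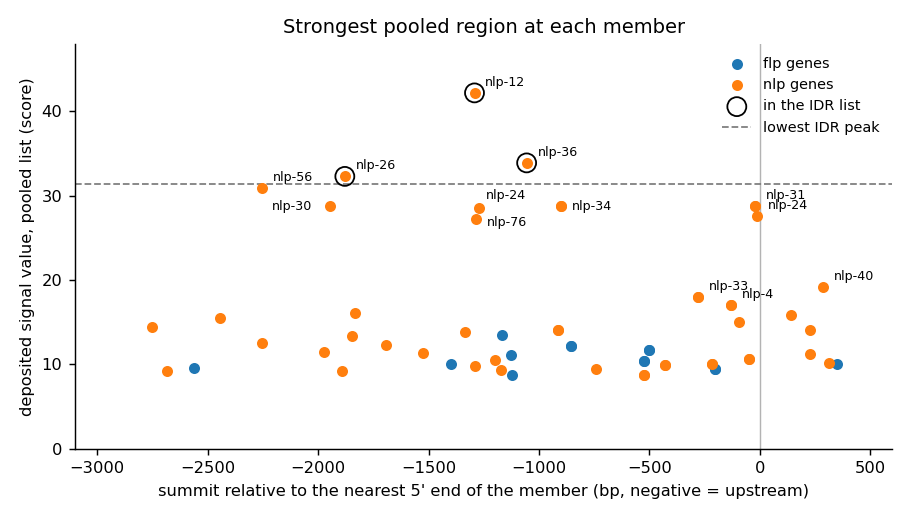
Pooled signal (y axis, deposited score) against the position of the summit from the nearest 5′ end of the member (x axis, bp), for the strongest region in the promoter window and the strongest within 3 kb upstream of each member. Rings mark IDR peaks and the dashed line the lowest IDR value, 31.4. The ringed points, at 1056 to 1879 bp upstream, belong to nlp-12, nlp-36 and nlp-26, and the flp points stay at 13.5 or below.

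The neuropeptide genes also lay farther from IDR summits than coding genes at large. The median distance from a member's 5′ end to the nearest IDR summit was 20952 bp, with 19087 bp for flp and 21692 bp for nlp, beside 14764 bp over all coding genes. For nlp-24 to nlp-34 it was 37056 bp. An IDR summit within 10 kb was found for 30 members (29.4%), beside 39.5%. The closest was 796 bp from nlp-4, on its downstream side, and the farthest 182375 bp from nlp-6. For the pooled list the median was 2158 bp, beside 1517 bp, and for nlp-24 to nlp-34 it was 431 bp.

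The members' surroundings differ from those of an average gene, and their part in the counts was not tested. The median gap to the next coding gene upstream was 2840 bp, with 5185 bp for flp and 2293 bp for nlp, beside 936 bp. A divergent coding 5′ end within 1 kb, which lets a single region count for a pair of genes, was found for 6 members (5.88%) and no flp gene, beside 18.7% of all coding genes. Among genes with no such neighbour, 0 of 96 members and 7.59% of 16244 coding genes had an IDR promoter peak. In the same set 17 members (17.7%) and 36.1% of the coding genes had a pooled one.

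Chromosome X carries 32 members (31.4%), beside 13.7% of all coding genes. Of these, 4 (12.5%) had a pooled promoter region, beside 41.5% of all coding genes on X, and 0 an IDR peak, beside 10.7%. Of the 70 autosomal members 17 (24.3%) had a pooled region, beside 38.8%, and 0 an IDR peak, beside 9.31%. The low counts were therefore present on X and on the autosomes. The 21 members on chromosome V, where most of nlp-24 to nlp-34 lie, had 8 pooled promoter regions (38.1%), beside 33.1% of all coding genes there.

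The 26 promoter regions were mostly outside transcribed sequence, with 15 intergenic, 4 in introns, 4 in coding exons, 2 in 5′ UTRs and 1 in a 3′ UTR. For 25 of them the nearest coding 5′ end was a member's own. Of the 26, 3 also fell in the promoter window of a gene that is no member. The window reaches 1000 bp upstream and 500 bp downstream, which favours summits outside the gene. The same counts over all coding promoters were not made, so these describe the 26 regions only.

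The AP-1 letters TGACTCA or TGAGTCA were found within 50 bp of the summit in 0 of these 26 regions, beside 1.75% of all pooled regions and 3.4% of IDR peaks. With 26 regions and a background this low, a count of 0 is uninformative. The CRE letters TGACGTCA were found in 0, beside 0.72%. GATA letters TGATAA were found in 4 (15.4%), beside 15.5% of pooled regions, a share at the background, and in 24% of IDR peaks. The C/EBP-like letters TTNCGNAA were found in 2 (7.69%) beside 6.36%, the E-box in 1 (3.85%) beside 2.78% and GAGAGAGA in 0 beside 2.51%. GC content was 36.1%, beside 36.8% in the pooled list and 43.7% in IDR peaks.

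The promoter sequence itself was also searched, in the 250 bases before and 50 bases after the outermost 5′ end. AP-1 letters were present in 5 members (4.90%; nlp-8, nlp-14, nlp-52, nlp-59 and nlp-78) and in none of the 31 flp genes, beside 3.62% of all coding genes. Of these 5 only nlp-14 had a pooled promoter region, at 8.78. CRE letters were present in 6 members (5.88%; flp-7, flp-22, nlp-40, nlp-43, nlp-56 and nlp-58), beside 1.51%, and GATA letters in 19 (18.6%), beside 30.2%. A match is a description of the sequence, not a bound site.

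The genes that process, release and receive these peptides were compared with the precursors. The receptors, G protein-coupled in the main, were 107 genes of the npr, frpr, dmsr and related names. No receptor gene had an IDR peak in its promoter, which allows a share of up to 2.8%, beside 9.50% of all coding genes. A pooled region was found at 23 (21.5%), beside 20.6% of the precursors and 39.2% of all coding genes. The highest, sprr-2, had 31.3 in the pooled list (rank 2751), just under the lowest IDR value, with 16.2 in replicate 1 and 14.5 in replicate 2. A separate IDR peak of 77.7 lay 2947 bp upstream of it.

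The processing and release genes held pooled regions more often by share than the precursors, a difference that was not tested. Of 11 processing genes 6 (54.5%) had a pooled promoter region and none an IDR peak. The highest was egl-21, the carboxypeptidase that trims the cut peptides, with 21.9, and 11.1 and 18.8 in the replicates. Of 14 genes for dense core vesicles 10 (71.4%) had a pooled region and 1 (7.14%) an IDR peak. The peak was at unc-108, which encodes the small GTPase RAB-2, with 83.3 in the pooled list, 35.3 in replicate 1 and 49.4 in replicate 2. Over these 25 genes 16 (64%, interval 42.5 to 82%) had a pooled region, beside 39.2% of all coding genes. An IDR peak was found at 1 of the 25 genes (4%, interval 0.101 to 20.4%), beside 9.50%. Many of them are also used outside the nervous system, so the lists differ in more than their place in the pathway.

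Of 15 epidermal genes known to control nlp-29, 8 had a higher pooled promoter value than nlp-29 itself, which had 9.90. That value is low in the pooled list, at rank 16545 of 20820. The median over coding genes with a pooled promoter region was 17.1, so the count of 8 says little. These 15 genes were listed with earlier results of these data known. A pooled promoter region was found at 11 (73.3%), beside 39.2% of all coding genes, and an IDR peak at 2 (13.3%, interval 1.66 to 40.5%), near the 9.50% of all coding genes. The bZIP factor gene cebp-1 had 276 in the pooled list (rank 20), 118 in replicate 1 and 158 in replicate 2, and nipi-3, a Tribbles-type pseudokinase gene, had 193, with rank 44 in the pooled and replicate 1 lists and rank 52 in replicate 2. Of the 7 genes for release and reception of NLP-40, 4 (57.1%, interval 18.4 to 90.1%) had a pooled region, beside 39.2% of all coding genes. An IDR peak was found at 2 (28.6%, interval 3.67 to 71%), beside 9.50%. Both intervals include the share of all coding genes. The 2 genes with an IDR peak were aex-4, a SNAP25-type gene of intestinal secretion, with 45.4, 22.7 and 22.3, and aex-1, a Munc13-like gene, with 36.3, 11.8 and 23.9.

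Other lists were counted too, beside shares over all coding genes of 39.2% for pooled promoter regions and 9.50% for IDR peaks. Of the 39 insulin-like genes 11 (28.2%) had a pooled promoter region and 2 (5.13%) an IDR peak. These 2 were ins-39 (267, with 109 and 164 in the replicates) and ins-35 (42.2, with 8.10 and 31.2). Of the 11 caenacins, a second family of antimicrobial peptides, 4 (36.4%) had a pooled region, a share near the background, and 0 an IDR peak. The highest was cnc-8 at 22.1. Of the 23 neprilysins, peptidases that break down peptides outside cells, 6 (26.1%) had a pooled region and 0 an IDR peak, with nep-17 highest at 28.9. Of 7 other precursor genes only pdf-1 (14.3%), the pigment-dispersing factor gene, had a pooled promoter region, of 10.4.

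**Figure D5:**
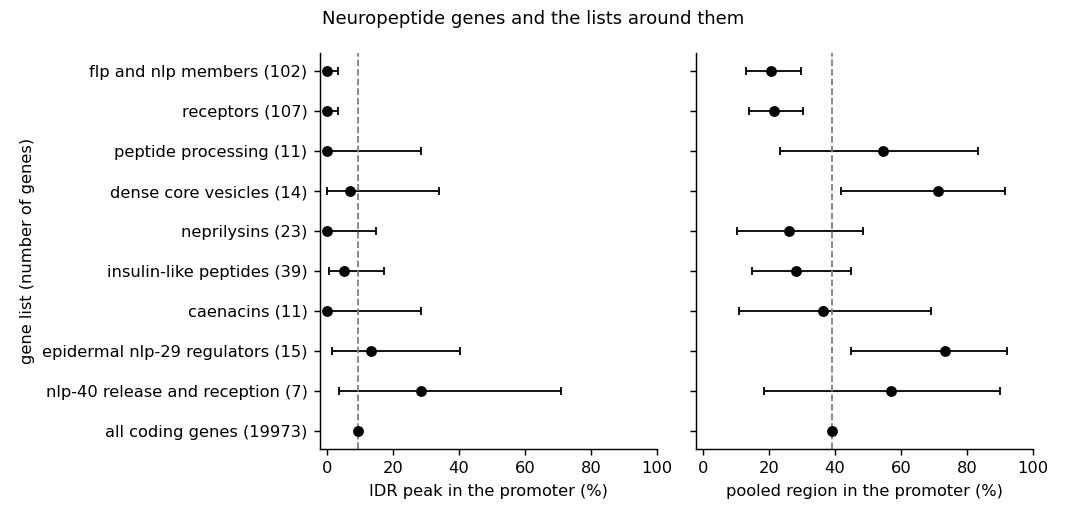
Percentage of genes with an IDR peak (left) or a pooled region (right) in the promoter window for the members and the surrounding gene lists (y axis, number of genes in brackets). Points are shares, lines exact 95% Clopper-Pearson intervals over genes, and dashed lines the shares of all coding genes, 9.50% and 39.2%. Precursors and receptors lie at 0 and near 21% and the vesicle and epidermal regulator lists lie to the right in the pooled panel.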

How the data were processed

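The data are the 4 peak lists deposited on build ce11 for 2 biological replicates of 1 group: 1 list per replicate, a pooled list and an IDR list, which held 27417, 28475, 20820 and 2738 regions. The deposited signal value of each region is a score of unstated scale, and the authors also deposited a −log10 of a q-value per region and a summit position. Per the text files deposited with the samples, replicate lists came from the replicate's alignments and a control. They are inputs for the IDR step and so hold background regions. The sources used here give no peak caller, aligner, version or number of reads, so the depth is unknown. Lists on ce10 were not used.

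Genes came from Ensembl release 115. Summits were compared with 5′ ends in Python 3.11.15 with numpy 2.4.6, pandas 2.3.3 and scipy 1.17.1, after a check on planted regions. A gene was scored by its strongest region in the window. A pooled region was matched to the nearest replicate summit within 200 bp, and a stronger one in reach is given where it differs. Named genes were the members with an IDR peak, the next 10 by pooled promoter signal, nlp-40, nlp-29 and the leading genes of each list; others named were chosen after their values were seen. Members and lists were chosen with earlier results of these data known. No set test was run. The samples share a strain, so whether their spread is technical is not known. Alternatives were other windows, stricter or wider lists, other matching distances and leaving out each replicate.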

Additional observations from a re-analysis of the deposited data

How the results depend on the processing

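The count of members with an IDR promoter peak rose from 0 to 3 (2.94%) when the window was widened to 2000 bp upstream, by nlp-12, nlp-26 and nlp-36, beside 12.3% of all coding genes. Ranking the strongest regions of a single replicate in place of the IDR list gave 0 to 3 members (0 to 2.94%), and 0 to 1 receptor genes. The shares over all coding genes were 9.43% without replicate 1 and 8.85% without replicate 2. Widening the window gave 1 receptor gene, npr-20. Within 3 kb upstream the count of 3, beside 14.4% of all coding genes, became 0 with the stronger 1369 IDR peaks. It became 4 without replicate 1, beside 14.3% of all coding genes, and 6 without replicate 2, beside 13.5%. The 21 members with a pooled promoter region became 13 with a window of 500 bp upstream to 250 bp downstream, beside 30.2% of all coding genes, and 9 with the stronger pooled regions, beside 26.2%. The 11 members with matched replicate summits became 7 at 100 bp, beside 21% of all coding genes. The count of 0 among the strongest regions of both replicates became 3 with 2 times as many regions, by nlp-31, nlp-33 and nlp-34, beside 11.5%. Within 100 bp of the summit AP-1 letters went from 0 to 1 region (3.85%), beside 3.35% of pooled regions at that width. GATA letters went from 4 to 7 (26.9%), beside 26.3%, and C/EBP-like letters from 2 to 4 (15.4%), beside 12.1%. These shares lie near those of the pooled list. Within 25 bp the E-box went from 1 to 0, beside 1.34%. The remaining alternatives left these counts within 1.5 times. No paired analysis was possible because there is 1 group.

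The absence of a region means that none was listed at an unknown depth, not that JUN-1 is absent. A summit near a gene describes a position, not an effect on the gene, and nearby genes can share it. The 2 replicates ranked single sites differently, as at nlp-36 (ranks 5493 and 1777).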
